A study of Mus musculus with 24 samples.

Results

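Cytosolic ribosomal protein genes were followed across 24 RNA-seq libraries of mouse microglia. They were chosen by name alone: 80 of the 49315 genes in the deposited table are protein-coding and carry a symbol of the Rpl, Rps, Rplp or Rpsa series. Of these, 31 encode proteins of the small (40S) subunit and 49 proteins of the large (60S) subunit. All genes of the 40S subunit and 47 of the 60S subunit passed the filter on low counts, so 78 were tested. The remaining genes, Rpl3l and Rpl10l, held 47 and 3 counts over all libraries.

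The libraries were made from adult mouse brain microglia sorted by flow cytometry for intermediate CD45 and for CD11b, and all mice had received tamoxifen. Cre+ mice carry the tamoxifen-activated recombinase creERT2 at Cx3cr1, a locus active in microglia and in other myeloid cells, for deletion of Dicer1, the nuclease that makes mature microRNAs. Cre- mice lack the recombinase and served as wild type. There were 3 libraries of each genotype in 4 states: naive mice; demyelination after 6 weeks of the copper chelator cuprizone; remyelination after 6 weeks of cuprizone and 6 weeks of normal diet with tamoxifen at the start; and the same diets with tamoxifen at the peak, in week 5 of cuprizone. The sample labels place tamoxifen at the start for the naive, demyelination and first remyelination states. For demyelination and the first remyelination state the series text gives an injection at 4-5 weeks without saying of what. The 3 mice of a group are called biological replicates, and their age is given as adult.

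A cytosolic ribosome joins a small subunit, which decodes the messenger RNA, to a large subunit, which forms the peptide bond. Each ribosome holds about one copy of most of these proteins, so their messenger RNAs are usually regulated as a set. Most mammalian ribosomal protein mRNAs are short, abundant and begin with a 5′ terminal oligopyrimidine (TOP) tract, a C followed by a run of C and T, through which growth signalling by mTORC1 controls their translation. Microglia that divide or become activated, as after loss of myelin, commonly make more ribosomes.

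Promoter entries of RefSeq (GRCm38.p6) matched 60 of the 80 genes by symbol. A C followed by at least 4 bases that were each C or T lay within 15 bases on either side of an annotated start, on the gene's strand, in 41 of these 60 genes (68.3%), and in 10885 of all 27025 genes with an entry (40.3%). The windows below, 30 bases each, are shown because they belong to genes that carry the results. Capitals mark the longest such run, and the annotated start is base 16.
Rpl13 (chr8:123102335-123102364, + strand): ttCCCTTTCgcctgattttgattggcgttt
Rpl35 (chr2:39005117-39005146, - strand): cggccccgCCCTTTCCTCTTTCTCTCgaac
Rpl12 (chr2:32961697-32961726, + strand): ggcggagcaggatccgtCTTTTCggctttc
Rpl13a (chr7:45128731-45128760, - strand): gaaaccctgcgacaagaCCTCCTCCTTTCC
Rps27l (chr9:66946071-66946100, + strand): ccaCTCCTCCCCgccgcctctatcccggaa
Rpl38 (chr11:114668565-114668594, + strand): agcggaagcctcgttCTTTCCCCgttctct
Rps4x (chrX:102189377-102189406, - strand): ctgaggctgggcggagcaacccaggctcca
Rpl5 (chr5:107900513-107900542, + strand): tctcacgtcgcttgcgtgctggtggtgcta
The windows of Rps4x and Rpl5 hold no such run, nor does a second annotated start of Rps27l. A match is only a match of letters, and a start annotated some bases away from the one in use would move a tract out of the window.

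Depth was 19.48 to 44.53 M counts per naive library and 21.87 to 32.71 M per demyelination library. Remyelination libraries were shallower, at 8.87 to 12.56 M (start) and 8.94 to 12.09 M (peak). Levels are given in CPM, counts per M counts after TMM scaling of the library sizes. The 12 microglia markers were detected in every library. Dicer1 counts sum all exons and do not isolate the deleted part, so they check the deletion poorly: Dicer1 stood at 21.81 to 24.31 CPM in naive Cre+ against 11.1 to 18.55 CPM in naive Cre- libraries, and was called higher there (log2 fold change 0.72 ± 0.16, edgeR adjusted p = 0.00151). In the other 3 states its values overlapped between genotypes and it was not called. Cx3cr1, the locus that carries creERT2, was lower in every Cre+ library than in every Cre- library of its state. It was far lower, at 89.62 to 227.1 CPM, in 3 Cre+ libraries (naive replicate 1 and demyelination replicates 1 and 3). One further library stood apart in the genes described here: naive Cre- replicate 3 held ribosomal protein counts at the level of the naive Cre+ libraries. Cre+ and Cre- are used throughout as the labels give them. Results that rest on these 4 libraries are given with and without them.

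The 80 genes took up 0.3455% to 0.386% of counts in naive Cre+ libraries. Naive Cre- libraries 1 and 2 held 0.5923% and 0.6088%, and naive Cre- library 3 held 0.3606%. In demyelination the share was 1.335% to 1.391% in Cre+ and 1.146% to 1.275% in Cre- libraries, above every library of the other 3 states. It was 0.5256% to 0.6254% in Cre+ and 0.6152% to 0.8028% in Cre- libraries in remyelination with tamoxifen at the start. With tamoxifen at the peak it was 0.4538% to 0.5198% in Cre+ and 0.5495% to 0.5982% in Cre- libraries. The summed level was 16800 ± 713 CPM in demyelination Cre+ and 14600 ± 1310 CPM in demyelination Cre- libraries, and 4051 ± 254 CPM in naive Cre+ and 5626 ± 1420 CPM in naive Cre- libraries (SD, n = 3 each). In these bulk samples, fewer cells of a type and less RNA per cell cannot be told apart.

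**Figure D1:**
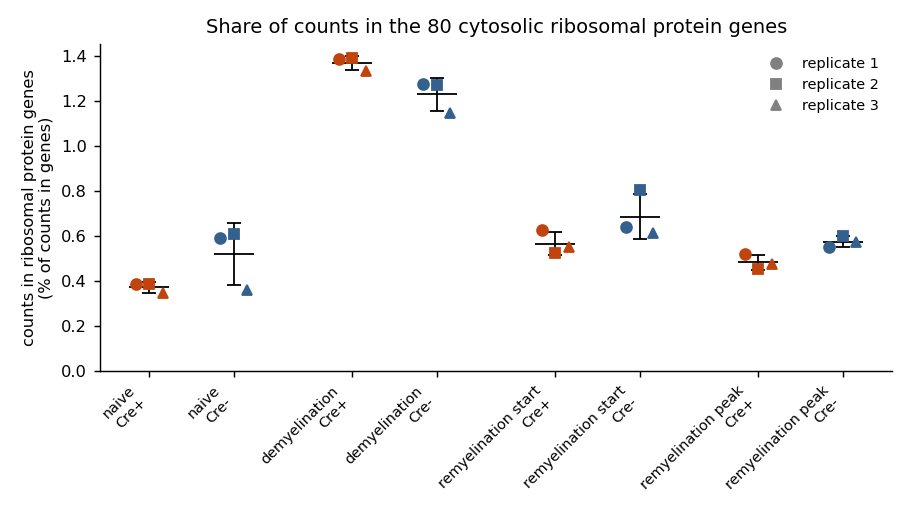
Share of each library's gene counts in the 80 cytosolic ribosomal protein genes (y axis, percent), by state and genotype (x axis); each point is 1 library, its shape gives the replicate number, and the bar shows the group's mean ± SD (n = 3). The 6 demyelination libraries lie between 1.146% and 1.391%, above all others, and naive Cre- replicate 3 (0.3606%) lies with the naive Cre+ libraries.

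Per kb of the principal transcript, the highest mean levels over the 24 libraries were those of Rps29 (410.9 CPM per kb), Rps27 (366.7) and Rpl13 (321.3), among the genes reported by name. At the other end, among tested genes, stood Rpl39l, a paralogue of Rpl39 known for its expression in testis, at 1.086 CPM per kb. The muscle paralogue Rpl3l and the testis paralogue Rpl10l were lower still, at 0.082 and 0.0102 CPM per kb. The 78 tested genes moved closely together: the correlation of log2 CPM between pairs of them over the 24 libraries had a median of 0.97 (range 0.29 to 1), and 0.86 after each group's mean was subtracted. These libraries share states, depth and composition, so the values only describe the set. Against the mean of the others, 75 of 78 genes had a correlation above 0.9. Lowest were Rpl39l (0.60), Rps29 (0.88) and Rpl37a (0.89).

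**Figure D2:**
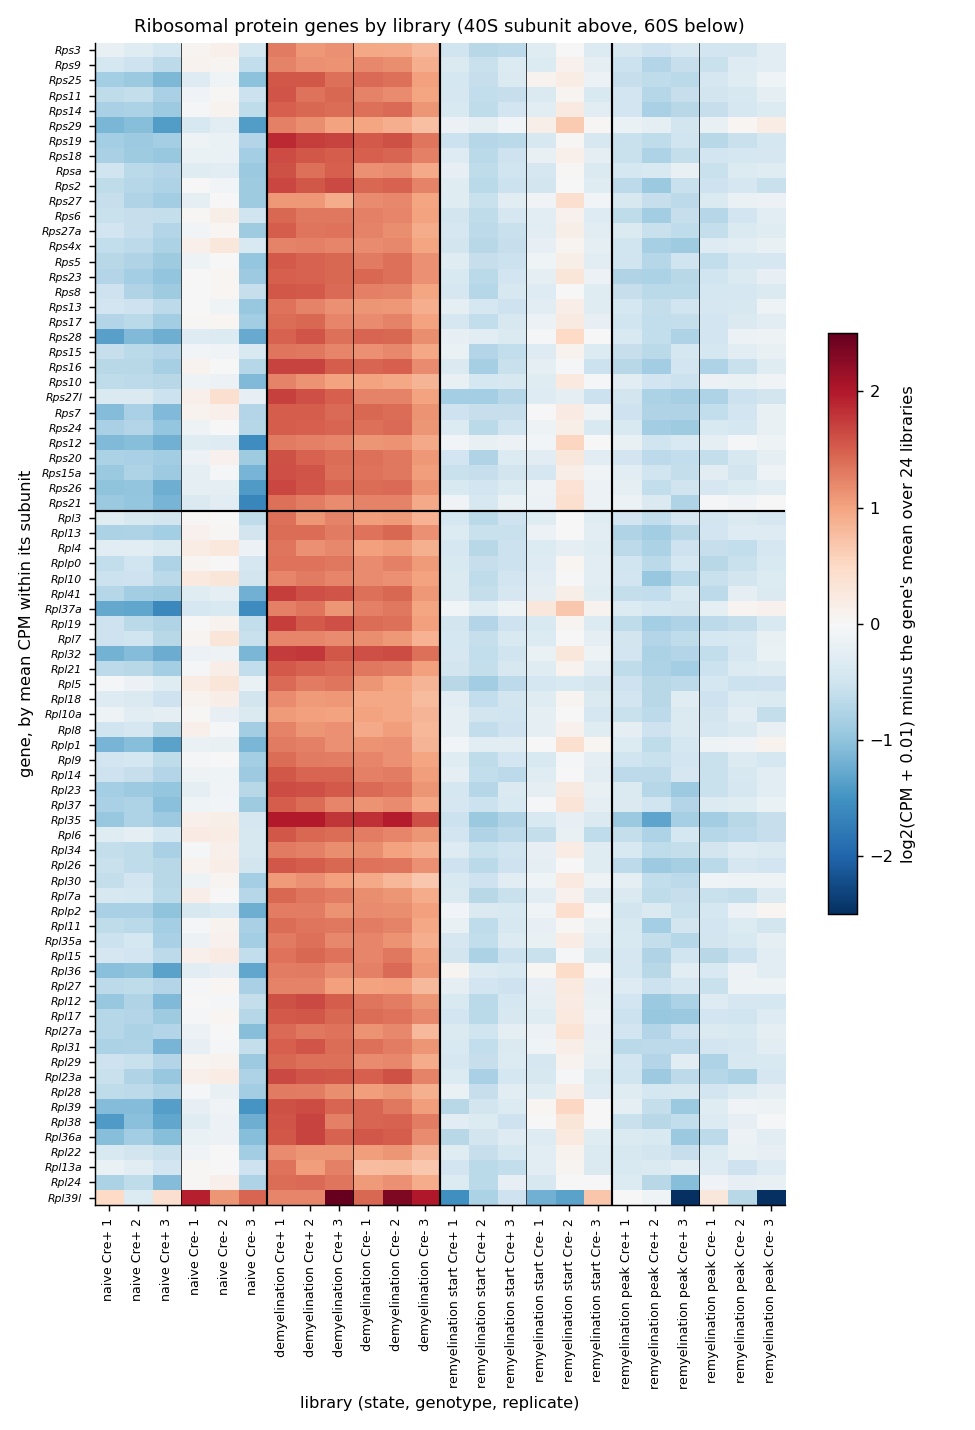
Level of 77 of the 78 tested genes (rows, the 40S subunit above the 60S subunit, by mean CPM within each) in the 24 libraries (columns), as log2(CPM + 0.01) minus the gene's own mean over the libraries; red is higher and blue lower. The 6 demyelination columns are red for nearly all genes, naive Cre- replicate 3 is as blue as the naive Cre+ columns, and Rpl39l in the last row does not follow the others.

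Demyelination was set against the naive state within each genotype to ask how cuprizone changed these genes. Ribosomal protein genes rose in demyelination as a set. In Cre+ microglia all 78 tested genes were higher than in naive Cre+ microglia (26.3% of all genes tested were called higher), with a median log2 fold change of 2.13 (4.371-fold) and a range of 1.24 to 2.86. In Cre- microglia 77 of 78 were higher (19.7% of all genes were), with a median of 1.38 (2.604-fold). All demyelination libraries lay above all naive libraries in 78 genes in Cre+ and 77 in Cre-, against 30.6% and 25.3% of all genes. The median over all 17579 genes tested was 0.01 in Cre+ and 0.04 in Cre-.

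Among 60S genes, Rpl32 had the largest rise in Cre+ microglia. It stood at 324.7, 330 and 284.7 CPM in demyelination Cre+ libraries, against 42.63, 45.77 and 41.07 CPM in naive Cre+ libraries (log2 fold change 2.86 ± 0.20 SE, n = 3 per group, edgeR, adjusted p = 1.22e-10). In Cre- microglia it stood at 296, 300.8 and 251.3 CPM in demyelination, against 88.16, 89.54 and 44.08 CPM in naive libraries (1.94 ± 0.19, edgeR adjusted p = 6.81e-08). In both genotypes every demyelination library was above every naive library, and naive Cre- replicate 3 was the lowest of its group. Rpl35, a protein near the exit tunnel of the large subunit, rose by 2.79 ± 0.14 in Cre+ (edgeR adjusted p = 2.17e-14) and 1.83 ± 0.14 in Cre- microglia (edgeR adjusted p = 8.98e-11). Its levels were 222.8, 224.3 and 195.6 CPM in demyelination Cre+, 199.5, 220.4 and 173.5 CPM in demyelination Cre-, 29.25, 33.06 and 30.23 CPM in naive Cre+, and 61.86, 62.49 and 42.56 CPM in naive Cre- libraries. Rpl38, whose haploinsufficiency causes the Tail-short phenotype in mice, rose by 2.76 ± 0.19 in Cre+ and 1.90 ± 0.18 in Cre- microglia.

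The stalk of the large subunit, which recruits the elongation factors, is made of P0, P1 and P2. Its genes Rplp0, Rplp1 and Rplp2 rose by 1.97 ± 0.12, 2.42 ± 0.18 and 2.10 ± 0.17 in Cre+, and by 1.28 ± 0.12, 1.47 ± 0.17 and 1.72 ± 0.17 in Cre- microglia. Among 40S genes, the largest rises in Cre+ microglia were those of Rps28 (2.70 ± 0.19, and 1.94 ± 0.18 in Cre-) and Rps19 (2.64 ± 0.13, and 1.81 ± 0.13 in Cre-). RPS19 is the gene most often mutated in human Diamond-Blackfan anaemia. Rps6, whose protein is phosphorylated by S6 kinase downstream of mTORC1, rose by 1.93 ± 0.14 in Cre+ and 1.25 ± 0.14 in Cre- microglia. Rpsa, a 40S protein also known as a laminin receptor, rose by 2.12 ± 0.15 in Cre+ and 1.57 ± 0.15 in Cre- microglia. In Cre+ microglia the median was 2.29 over 31 genes of the 40S and 2.06 over 47 of the 60S subunit, a difference that was not tested.

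The smallest rises in Cre+ were 1.24 for Rpl10a, 1.48 for Rps3 and 1.51 for Rpl5, genes named here after their values were seen. In Cre- they included Rpl5 (0.86), whose protein with that of Rpl11 carries a small ribosomal RNA into the large subunit and can bind Mdm2. The exception was Rpl39l. It stood at 1.085, 1.085 and 3.941 CPM in demyelination Cre+ libraries, against 0.6552, 0.3625 and 0.6154 CPM in naive Cre+ libraries (1.91 ± 0.57, edgeR adjusted p = 0.00697). In Cre- libraries it stood at 1.261, 2.381 and 1.892 CPM in demyelination, against 1.811, 1.007 and 1.287 CPM in the naive state, with overlapping values (0.45 ± 0.54, edgeR adjusted p = 0.562). Naive Cre+ libraries held 14 to 16 counts of it, and its folds have the largest errors of the genes named. Its highest value, 3.941 CPM, was that of demyelination Cre+ replicate 3, one of the libraries of low Cx3cr1. Without that library 77 of the 78 genes were called in Cre+.

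The comparisons in Cre+ and Cre- share no library. Over the 78 genes their log2 fold changes had a Pearson r of 0.84 and a Spearman rho of 0.88 (a description across genes, which are not independent). Every gene had a larger change in Cre+. Demyelination Cre+ held the highest group mean of 77 of 78 genes.

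Markers of other myeloid cells moved with the state. The summed border macrophage markers stood at 110.7 to 220.2 CPM in demyelination, against 15.3 to 28.05 CPM in naive libraries, with 7 of 7 genes higher in both genotypes. Monocyte markers summed to 212.9 to 768.2 CPM in demyelination, against 23.87 to 81.78 CPM, with 4 of 6 genes higher in Cre+ and 5 of 6 in Cre-. Neutrophil markers summed to 1325 to 1673 CPM in demyelination Cre+, against 129.7 to 508.7 CPM in naive Cre+ libraries, and overlapped in Cre- (215.8 to 886.8 CPM in demyelination, against 164.2 to 490.2 CPM), with 2 of 7 genes higher in both genotypes. Microglia markers went both ways: 5 of 12 were higher and 7 lower in Cre+, and 3 higher and 8 lower in Cre-. Their sum was 43960 to 47500 CPM in demyelination, against 60780 to 68470 CPM in naive libraries. At 0 in any library were Retnlg of the neutrophil list (1 library) and genes of the lymphocyte, oligodendrocyte and neuron lists. The part of these cells in the rise was not tested.

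**Figure D3:**
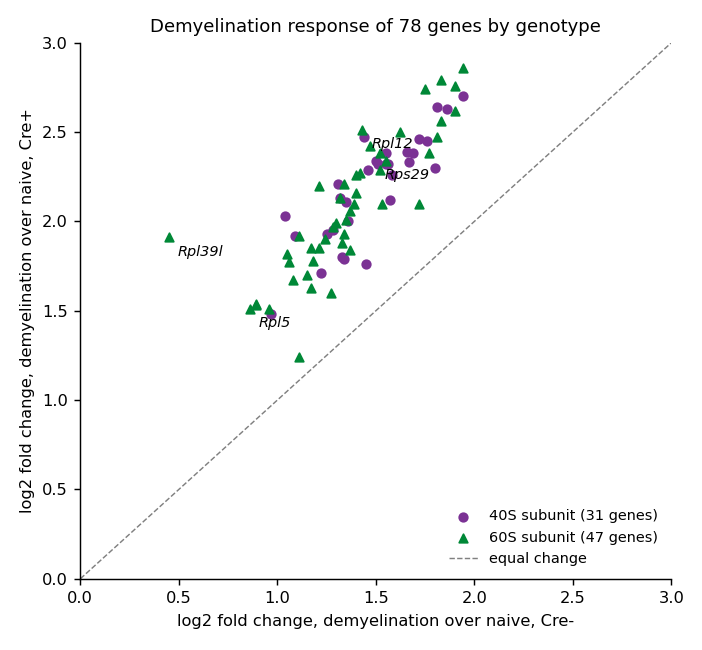
Log2 fold change of demyelination over naive for the 78 tested genes in Cre+ (y axis) and Cre- microglia (x axis); circles are 40S and triangles 60S genes, and the dashed line marks equal change. All points lie above the line (Pearson r = 0.84), and Rpl39l lies apart at 1.91 in Cre+ and 0.45 in Cre-.

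Naive libraries labelled Cre+ were set beside naive libraries labelled Cre-, a comparison meant to address Dicer1 deletion in unchallenged mice, although Dicer1 totals were higher in these Cre+ libraries and the deleted part was not measured. Ribosomal protein genes were lower in Cre+. Of 78 genes, 52 were called lower and none higher (13.7% of all genes were called lower), all 78 fold changes were below 0, and their median was -0.52 (0.6982-fold). All Cre+ libraries lay below all Cre- libraries in 22 genes, a share near the 20.4% of all genes that did. The lower calls were 21 of 31 genes of the 40S and 31 of 47 of the 60S subunit. Summed astrocyte markers stood at 286.5 to 332.2 CPM in Cre+, against 427.2 to 549.6 CPM in Cre- libraries (2 of 7 lower), and border macrophage markers at 15.3 to 19.42 CPM in Cre+, against 20.65 to 28.05 CPM in Cre- libraries (1 of 7 higher and 1 lower). Microglia markers summed to 60780 to 65550 CPM in Cre+, against 65690 to 68470 CPM in Cre- libraries (3 of 12 lower). Neuron markers went the other way, at 6.717 to 8.807 CPM in Cre+, against 4.355 to 6.068 CPM in Cre- libraries (1 of 6 higher). None of these sums overlapped between genotypes, and their part in the difference was not tested.

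Rps7, a 40S protein, had the largest called difference. It stood at 20.26, 24.5 and 20.04 CPM in Cre+, against 46, 47.17 and 25.7 CPM in Cre- libraries (-0.87 ± 0.16, edgeR adjusted p = 0.000321). Cre- replicate 3 lay close to the Cre+ libraries and Cre- replicates 1 and 2 lay far above them. Rpl35 followed at -0.85 ± 0.14 (edgeR adjusted p = 5.75e-05), again without overlap. The abundant Rpl13 stood at 121.7, 123.4 and 116.4 CPM in Cre+, against 226.9, 214.1 and 152.9 CPM in Cre- libraries (-0.72 ± 0.11, edgeR adjusted p = 4.91e-05). Rplp0 (-0.51 ± 0.12), Rplp1 (-0.75 ± 0.17) and Rps6 (-0.50 ± 0.14) were called lower. Rplp2 (-0.27 ± 0.17), Rpsa (-0.16 ± 0.14), Rpl3 (-0.21 ± 0.13) and Rpl22 (-0.19 ± 0.15), a 60S protein without which most ribosomes still form, were not.

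The size of this difference depended on single libraries. Without naive Cre- replicate 3, 74 of 78 genes were called lower with a median of -0.72. Without Cre- replicate 2, 24 were called (median -0.37), and 30 were called without Cre- replicate 1 (-0.43) or without Cre+ replicate 3 (-0.46). Without the 3 libraries of low Cx3cr1, 40 were called (median -0.59), and without these and naive Cre- replicate 3, an alternative added after seeing the data, 76 (median -0.80). The direction was the same in each of these fits. With only the 2 naive groups in the fit, 25 genes were called lower.

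In demyelination the genotype difference pointed the other way. Cre+ exceeded Cre- in 77 of 78 fold changes, with a median of 0.21, and 53 genes had all Cre+ libraries above all Cre- libraries (16.4% of all genes did). Called higher were 3 of 78 genes, a smaller share than the 5.69% of all genes that were. Rpl13a, which in human monocytic cells also acts outside the ribosome in the interferon-gamma response, stood at 59.24, 47.54 and 54.91 CPM in Cre+, against 39.52, 39.7 and 37.03 CPM in Cre- libraries (0.48 ± 0.13, edgeR adjusted p = 0.019). Rps27l, a p53-inducible paralogue of Rps27, stood at 144.8, 135.7 and 125.6 CPM in Cre+, against 105.3, 104.8 and 89.06 CPM in Cre- libraries (0.44 ± 0.12, edgeR adjusted p = 0.0236). Rpl5 was higher by 0.37 ± 0.10 (edgeR adjusted p = 0.023), at 264.9, 243.8 and 248.9 CPM in Cre+, against 211.8, 197.2 and 178.4 CPM in Cre- libraries. In all 3 genes the groups did not overlap. None of the 3 was called without Cre+ replicate 1 (median 0.18), Cre- replicate 2 (0.25) or Cre- replicate 3 (0.15), and 1 was called without Cre+ replicate 3 (0.24). None was called without the 3 libraries of low Cx3cr1 (0.26), a fit in which the single demyelination Cre+ library left takes its spread from all groups. Markers of other cells differed between the genotypes as well, in both directions. Summed neutrophil markers stood at 1325 to 1673 CPM in Cre+, against 215.8 to 886.8 CPM in Cre- libraries, with none of 7 called. Summed monocyte markers stood at 464.5 to 768.2 CPM in Cre+, against 212.9 to 340.4 CPM in Cre- libraries. Of these 6 genes 1 was higher and 2 lower, with a median log2 fold change of -1.1. Border macrophage markers stood at 110.7 to 124.5 CPM in Cre+, against 172.1 to 220.2 CPM in Cre- libraries, with 2 of 7 lower. Endothelial markers summed to 117.3 to 121.3 CPM in Cre+, against 85.12 to 106.9 CPM in Cre- libraries. Neuron markers summed to 2.712 to 3.401 CPM in Cre+, against 3.71 to 4.446 CPM in Cre- libraries. No gene of the endothelial and neuron lists was called. The part of all these markers in the difference was not tested.

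**Figure D4:**
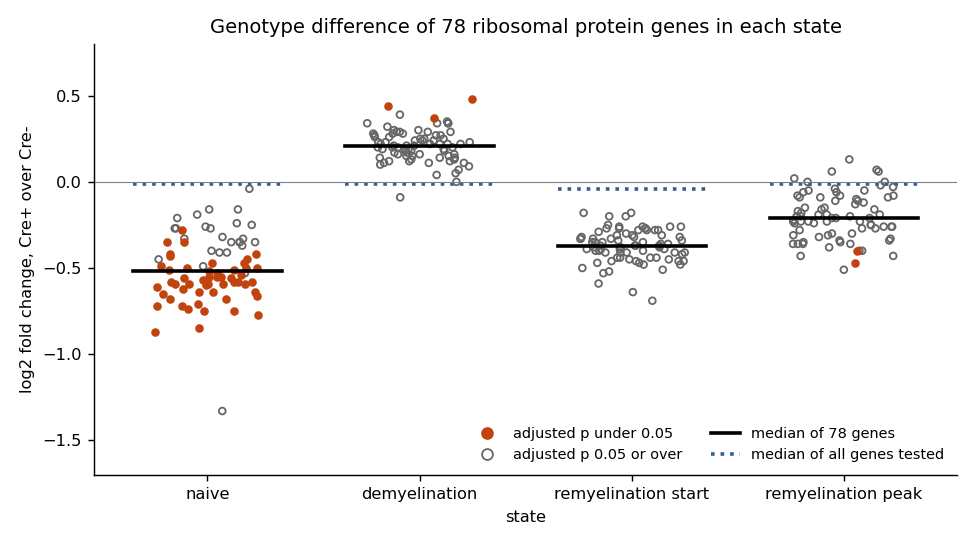
Log2 fold change of Cre+ over Cre- for each of the 78 tested genes in the 4 states (x axis); filled points passed an adjusted p of 0.05 in edgeR, the black bar is the median of the 78 genes and the dotted bar that of all genes tested. The median is -0.52 in naive, 0.21 in demyelination, -0.37 and -0.21 in remyelination with tamoxifen at the start and at the peak.

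In remyelination the differences were again below 0. With tamoxifen at the start, all 78 fold changes were negative (median -0.37) and 52 genes had all Cre+ libraries below all Cre- libraries, against 9.48% of all genes. No member was called by edgeR, which called 0.0341% of all genes in either direction, and DESeq2 called 2 members. Rplp0 stood at 132.8, 116.1 and 119.4 CPM in Cre+, against 138, 180.1 and 145.5 CPM in Cre- libraries, without overlap (-0.33 ± 0.12, edgeR adjusted p = 0.34). Cre- replicate 2 had the highest share of ribosomal protein counts in this state, and without it the median was -0.22. With tamoxifen at the peak, the median was -0.21 and 28 genes had all Cre+ libraries below all Cre- libraries (12.1% of all genes). There 2 of 78 genes were called lower, a smaller share than the 4.02% of all genes that were. Rps4x, the X-linked 40S protein, stood at 62.41, 49.54 and 48.05 CPM in Cre+, against 70.53, 73.45 and 77.88 CPM in Cre- libraries (-0.47 ± 0.13, edgeR adjusted p = 0.0202). Rpl13 stood at 124.4, 114.9 and 128.9 CPM in Cre+, against 149.7, 166.7 and 168.6 CPM in Cre- libraries (-0.40 ± 0.12, edgeR adjusted p = 0.0262). The groups did not overlap in either gene. No gene was called without Cre+ replicate 2, Cre- replicate 2 or Cre- replicate 3, 1 was called without Cre+ replicate 3 and 4 without Cre+ replicate 1. In the same libraries, astrocyte markers summed to 334.4 to 440.7 CPM in Cre+, against 588.3 to 813 CPM in Cre- (2 of 7 lower), and endothelial markers to 28.49 to 58.83 CPM in Cre+, against 60.09 to 98.49 CPM in Cre- (1 of 6 lower). Neutrophil markers summed to 441.5 to 5121 CPM in Cre+, against 172 to 282.6 CPM in Cre- (1 of 7 higher), and monocyte markers to 95.63 to 658.4 CPM in Cre+, against 75.35 to 90.51 CPM in Cre- (1 of 6 higher). None of these sums overlapped, and their part in the difference was not tested.

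The change of the genotype difference between states was tested as an interaction. From naive to demyelination it moved upward in 48 of 78 genes (7.97% of all genes were called higher), with a median of 0.71. Rpl12, at the base of the stalk, moved by 1.08 ± 0.19 (edgeR adjusted p = 0.000841). Its levels were 126.7, 131.3 and 119.8 CPM in demyelination Cre+, against 106.3, 102.4 and 89.91 CPM in demyelination Cre-, and 21.81, 24.72 and 19.61 CPM in naive Cre+, against 42.38, 40.57 and 27.81 CPM in naive Cre- libraries. Rps7 moved by 1.03 ± 0.22 and Rpl24, which bridges the subunits, by 1.00 ± 0.26. The count was 76 without naive Cre- replicate 3 (median 0.95) and 24 without naive Cre- replicate 2 (0.56). It was 29 without naive Cre- replicate 1 (0.61) or demyelination Cre- replicate 3 (0.62), 27 without naive Cre+ replicate 3 (0.66), and 25 without the 3 libraries of low Cx3cr1 (0.82). Between demyelination and remyelination with tamoxifen at the start, the genotype difference moved downward in 11 genes (2.94% of all genes), with a median of -0.59. Rpl13a (-0.89 ± 0.19, edgeR adjusted p = 0.0133) and Rps27l (-0.88 ± 0.18, edgeR adjusted p = 0.0115) moved most among called genes. This count depended on many of the libraries. It was 1 without remyelination start Cre- replicate 2, remyelination start Cre+ replicate 2 or demyelination Cre+ replicate 1, and 7 without remyelination start Cre+ replicate 1. It was 5, 3 and 2 without demyelination Cre- replicates 1, 2 and 3, 6 without demyelination Cre+ replicate 3, and 0 without the 3 libraries of low Cx3cr1, where the median was still -0.59. Between both tamoxifen timings no member was called by edgeR or DESeq2 (3.77% of all genes were by edgeR), and the median was 0.16.

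Remyelination with tamoxifen at the start was also set against the naive state. The naming schemes of these libraries differ, so any difference in preparation cannot be told apart from the change of state. After TMM scaling the set as a whole was near its naive level, with medians of 0.23 in Cre+ and 0.12 in Cre- microglia beside 0.06 and 0.08 over all genes. The unscaled share of counts was higher, at 0.5256% to 0.6254% against 0.3455% to 0.386% in naive Cre+ libraries. In Cre- it was 0.6152% to 0.8028% against 0.3606% to 0.6088%. The scaling factors were 1.162 to 1.226 in remyelination and 0.909 to 0.93 in naive Cre+ libraries, so this reading depends on them. Single genes moved in both directions. In Cre+, 23 were higher and 4 lower (28.6% and 29.2% of all genes); in Cre-, 13 were higher and 5 lower (28.8% and 27.4% of all genes). These shares are near or below those of all genes. Rpl37a rose most, by 1.23 ± 0.22 in Cre+ and 1.07 ± 0.22 in Cre- microglia, to 112.2, 95.86 and 108.5 CPM in remyelination Cre+ libraries, against 48.53, 47.99 and 38.77 CPM in naive Cre+ libraries. Rps29 rose by 1.05 ± 0.21 and 0.90 ± 0.20, and Rps12, Rps28, Rplp1, Rplp2 and Rpl36 were also higher in both genotypes. Correction for length and GC content turned Rpl36 to -0.15 in Cre+ and -0.45 in Cre-, and Rplp1 to -0.29 in Cre-, and left Rps29 at 0.33 in Cre+ and 0.25 in Cre-, Rplp1 at 0.06 in Cre+ and Rplp2 at 0.32 in Cre+, none of these 4 called. Rpl5 fell by 0.58 ± 0.10 in Cre+ (edgeR adjusted p = 3.97e-05) and by 0.55 ± 0.10 in Cre- microglia, to 61.56, 54.46 and 62.73 CPM in remyelination Cre+ libraries, against 96.92, 89.55 and 80.5 CPM in naive Cre+ libraries. Rps27l and Rpl4 were lower in both genotypes too. Rps3 was called lower in Cre+ alone, Rpl6 and Rpl39l in Cre- alone, and these differences between genotypes were not tested. Upper-quartile scaling, under which the median of all genes stood at 0.28, gave 52 higher and 1 lower in Cre+. Correction for exonic length turned the balance. It gave 9 higher and 14 lower in Cre+, and 5 higher and 19 lower in Cre-. It left part of the trend in place, with a rho of other genes with principal-transcript length of 0.19 in Cre+ and 0.27 in Cre-. Correction for principal-transcript length, chosen after seeing the data, left 0.02 and 0.06. It is not among the corrections named below under which the balance reversed. The part of length in these changes was not tested. Naive Cre- replicate 3 bore on the Cre- balance as well (9 higher and 14 lower without it), and 29 genes were called there without naive Cre- replicate 2.

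Ribosomal protein genes are short, and fold changes in these libraries ran with gene length. The principal transcripts of the 78 genes had a median of 869 bases (345 to 5179), against 3024.5 bases for 13526 other protein-coding genes tested. Within single libraries, the Spearman rho between transcript length and a gene's level relative to its mean over libraries was -0.06 to 0.05 in naive Cre+, -0.34 to -0.17 in naive Cre-, -0.47 to -0.39 in demyelination and 0.26 to 0.45 in remyelination libraries. Short genes were relatively high in demyelination and low in remyelination libraries. Naive Cre- replicate 3, whose ribosomal protein share was lowest in its group, also had the value nearest to 0 (-0.17, beside -0.34 and -0.33). State and this trend cannot be told apart by design. For remyelination libraries, depth and sample naming go with them too, while the depths of naive and demyelination libraries overlapped.

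The set was therefore read beside other genes of its own length. Of the 78 genes, 50 had principal transcripts under 1000 bases, as did 781 other genes. In naive Cre+ against Cre- the median was -0.55 for the 50 ribosomal protein genes and -0.29 for the others, of which 32.39% were called lower. In demyelination against naive it was 2.18 beside 0.95 in Cre+ and 1.40 beside 0.47 in Cre- microglia, where 66.07% and 48.27% of the others were called higher. For transcripts of at least 1000 and under 2000 bases, the medians were 2.10 for 23 ribosomal protein genes and 0.36 for 2812 others in Cre+, and 1.35 and 0.13 in Cre-. The longest principal transcript was that of Rps15a (5179 bases), which rose by 2.39 ± 0.19 in Cre+ microglia; as the only ribosomal protein gene of 5000 or more bases it stands alone beside 2641 others with a median of -0.27.

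**Figure D5:**
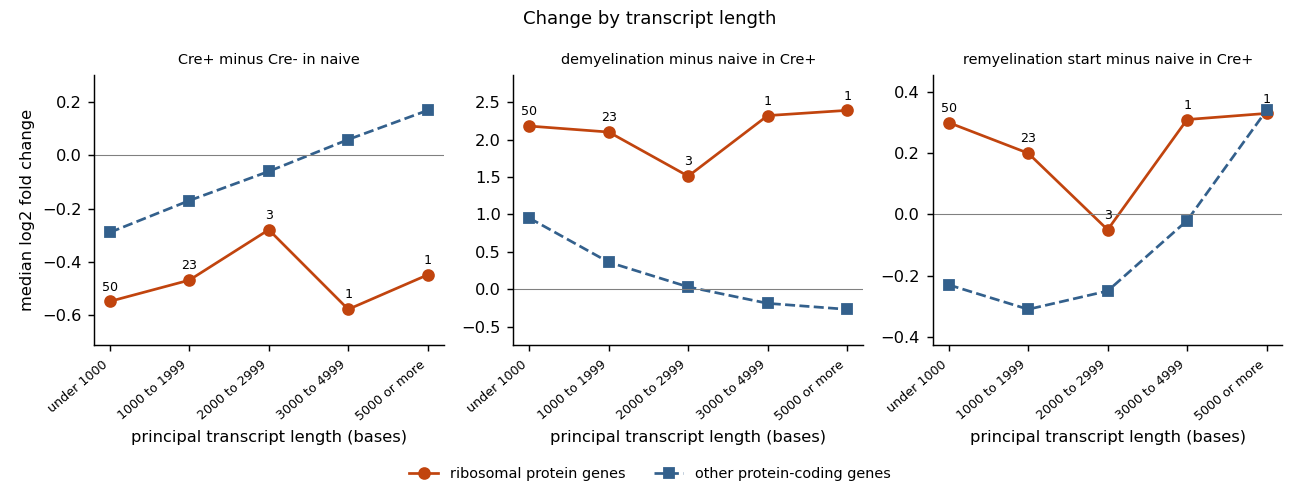
Median log2 fold change by length of the principal transcript (x axis, bases) for ribosomal protein genes (circles, with their number in each bin) and other protein-coding genes (squares), in naive Cre+ against Cre-, demyelination against naive in Cre+ and remyelination start against naive in Cre+, with separate y axes. The medians of the other genes change with length, and the ribosomal protein genes lie apart from them in every bin of the first 2 panels.

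In remyelination with tamoxifen at the start against naive, other genes under 1000 bases had medians of -0.23 in Cre+ and -0.38 in Cre- microglia, beside 0.30 and 0.16 for ribosomal protein genes. Across other genes, the rho of fold change with length was 0.26 for naive Cre+ against Cre-, -0.31 and -0.18 for demyelination against naive in Cre+ and Cre-, and 0.23 and 0.37 for this comparison. Among the 78 genes it was 0.24, -0.29, -0.29, -0.38 and -0.35. In the last comparison the shorter ribosomal protein genes were the higher ones, opposite to genes at large.

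Offsets that model the trend of each library with length were fitted on other tested genes of any type. They made the members' differences smaller in demyelination against naive and in naive Cre+ against Cre-, with the direction as before. Offsets by exonic length did not remove the whole trend. Across other protein-coding genes, rho with the principal transcript stayed at 0.14 in naive Cre+ against Cre-. It was -0.17 and -0.07 in demyelination against naive in Cre+ and Cre-, and 0.19 and 0.27 in remyelination start against naive. In the last comparison the offsets by exonic length turned the balance, as given above. With exonic length, which moved the median of all genes to -0.14 in Cre+ and -0.13 in Cre-, demyelination against naive still gave 78 and 77 genes higher (medians 1.75 in Cre+ and 1.12 in Cre-), and naive Cre+ against Cre- gave 42 lower (median -0.42). With the principal transcript in its place, an alternative chosen after seeing the data, which brought the rho of other genes to between -0.04 and 0.06 in all comparisons, 77 genes were higher in both genotypes (medians 1.31 and 0.88). Naive Cre+ against Cre- then gave 24 lower (median -0.24), and the interaction 18 higher (median 0.42).

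Other genes of protein synthesis were described by list. The 7 ribosomal protein genes whose symbols the name rule does not take followed the set in demyelination: 6 of 7 were higher in both genotypes, among them Rack1 (1.46 ± 0.11 in Cre+, 1.00 ± 0.11 in Cre-), a 40S scaffold. The exception was Rpl7l1, a paralogue of Rpl7 (-0.06 ± 0.09 in Cre+), which was called lower in Cre- (-0.29 ± 0.09). Of 14 translation factors and other genes with TOP mRNAs, 14 were higher in both genotypes, with medians of 1.28 in Cre+ and 0.93 in Cre- microglia. They include Eef1b2 (1.70 ± 0.12 in Cre+), an exchange factor of translation elongation, and Pabpc1 (1.64 ± 0.11 in Cre+), the poly(A)-binding protein. Only Eef1b2 was called lower in naive Cre+ against Cre- (-0.34 ± 0.12, edgeR adjusted p = 0.0281).

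In lists of ribosome making and its control, calls mostly went in both directions. In Cre+, the assembly and initiation factors were called higher more often than lower. Of all genes, 26.3% were higher and 25.9% lower in demyelination against naive in Cre+, and 19.7% and 16.2% in Cre-. Of 36 ribosome assembly factors tested, 19 were higher and 4 lower in demyelination against naive Cre+ microglia (median 0.31), and 8 and 3 in Cre- (0.03). Genes of rRNA transcription by RNA polymerase I gave 5 higher and 4 lower of 15 in Cre+ (0.08) and 2 and 2 in Cre- (-0.02). The mTORC1 pathway gave 5 higher and 5 lower of 22 in Cre+ (-0.17) and 7 and 2 in Cre- (-0.03). Of 22 translation initiation factors, 13 were higher and 4 lower in Cre+ (0.37), and 7 and 1 in Cre- (0.15). Transcripts that host small nucleolar RNAs gave 4 higher and 1 lower of 9 in Cre+ (0.61), and 4 and 0 in Cre- (0.48).

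Nuclear genes of mitochondria were set beside the cytosolic ribosome. Mitochondrial ribosomal protein genes were higher in 56 and lower in 1 of 77 in demyelination against naive Cre+ microglia (median 0.67), and higher in 30 and lower in none in Cre- (0.24). In naive Cre+ against Cre- they were lower in 25 of 77 (-0.23), near other genes of at least 1000 and under 2000 bases, where the list's median length of 1316 bases lies (25.04% lower, median -0.17). Nuclear-encoded respiratory chain subunits were higher in 73 of 77 in Cre+ (1.45), higher in 62 and lower in 2 in Cre- (0.81), and lower in 40 of 77 in naive Cre+ against Cre- (-0.36). Their median length is 763 bases, and of other genes under 1000 bases 32.39% were lower there (median -0.29). In demyelination Cre+ against Cre-, 16 of these 77 respiratory chain subunits were higher (0.30), beside 5.69% of all genes. In demyelination against naive, other genes in both of these length ranges also had positive medians in both genotypes, as given above. The part of length in the rise of both lists was not tested.

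Promoters with and without the pyrimidine run had close medians. Over 39 tested genes with it and 19 without, the median log2 fold change was 2.10 and 2.06 in demyelination against naive Cre+, 1.43 and 1.33 in Cre-, and -0.49 and -0.51 in naive Cre+ against Cre-. The ranges overlapped widely in each.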

How the data were processed

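The values are raw read counts of genes with Ensembl identifiers, as the authors deposited them. Per the submitters' processing notes, the tools were Trimmomatic 0.36, STAR 2.5.2b, featureCounts of Subread 1.5.2 and DESeq2, with build GRCm38; how strand and multiply mapped reads were treated is not given in the sources used here. Of 49315 identifiers, 49056 matched GENCODE M21. The members and lists were chosen with earlier results of these data known. Of the 80 genes, 37 share exon bases with another gene of the annotation, mostly small nucleolar RNAs or antisense genes, and many have near-identical pseudogenes, so reads may have been split.

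The test was edgeR 4.0.16 in R 4.3.3 (filterByExpr, TMM, robust quasi-likelihood F test, 2-sided). All 24 libraries were fitted as 8 group means with 16 residual degrees of freedom, which left 17579 genes, and p-values were adjusted by Benjamini-Hochberg over all of them at a threshold of 0.05. Log2 fold changes are given ± SE. The fit was also run on counts simulated gene by gene, without a length trend or an outlying library. That run does not bear on these features. Precision is set by 3 libraries a group. DESeq2 1.42.0, other scalings and filters, length and GC offsets, a replicate block and leaving out libraries were alternatives. Named genes are up to 6 called genes with the largest rise and 6 with the largest fall in each comparison (mean log2 CPM of at least 2), the stalk genes, Rpsa, Rps6, Rpl22, the paralogues, the 3 most abundant, the 3 shortest and the 3 longest genes by exonic length; genes ranked per kb were chosen after their values were seen. Some genes are not reported by name here; they stay in the fits and counts. Replicate numbers of naive and demyelination Cre+ libraries deviated together (r = 0.12, 0.12 and 0.11), and the block left 78 calls there.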

Additional observations from a re-analysis of the deposited data

Results flagged for a closer look

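The genotype difference of ribosomal protein genes differed between states by the interaction test of edgeR. From naive to demyelination it moved upward in 48 of 78 genes, beside 7.97% of all genes. The largest called shifts in log2 were 1.08 for Rpl12, 1.03 for Rps7, 1.00 for Rpl24, 0.98 for Rps27l, 0.96 for Rpl35 and 0.94 for Rplp1. Naive Cre- replicate 3 and the 3 libraries of low Cx3cr1 moved with this count, and their part in it was not tested beyond the fits without them.

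From demyelination to remyelination with tamoxifen at the start it moved downward in 11 of 78 genes, beside 2.94% of all genes. The count ran from 1 to 12 with single libraries left out, and was 0 without the 3 libraries of low Cx3cr1. The shifts were -0.89 for Rpl13a, -0.88 for Rps27l, -0.78 for Rpl12, -0.75 for Rpl23, -0.68 for Rps19 and -0.67 for Rpl5. Rpl12, Rps27l and the set median (0.71 and -0.59) moved in opposite directions in these tests, which share the demyelination libraries.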

How the results depend on the processing

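Counts are of called genes among the 78. Demyelination against naive gave 77 or 78 calls in Cre+ and 77 in Cre- under each alternative run, with medians of 1.31 to 2.23 in Cre+ and 0.88 to 1.54 in Cre-. Leaving out one library in turn gave 24 to 74 calls for naive Cre+ against Cre-, 0 to 3 in demyelination, 0 in remyelination with tamoxifen at the start and 0 to 4 at the peak. It gave 24 to 76 for the interaction of demyelination and naive, 1 to 12 for that of remyelination start and demyelination, and 0 for that of both timings. It gave 77 to 78 and 77 for demyelination against naive in Cre+ and Cre-, and 19 to 25 and 12 to 29 for remyelination start against naive; the last was 23, with the balance reversed, without naive Cre- replicate 3. The medians of the last were -0.09 to 0.27. The causes were not tested.

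Fitting only the groups compared gave 25 calls in naive, 10 in demyelination, 1 in remyelination start, 6 at the peak, 31 and 51 for the first 2 interactions, and 45 (Cre+) and 8 (Cre-, balance reversed) for remyelination start against naive. No filter on low counts gave 16 in demyelination, 3 in remyelination start, 11 at the peak and 50 for the second interaction. DESeq2 gave 2 in remyelination start and 34 for the second interaction, RLE factors 19 and upper-quartile scaling 5 for the second interaction. Upper-quartile scaling gave 53 calls for remyelination start against naive in Cre+ and moved the median of all genes there to 0.28, and to 0.18 in Cre-; a mean CPM of at least 5 gave 53 in Cre+ and 30 in Cre-. Without the 3 libraries of low Cx3cr1, demyelination gave 0, the first interaction 25 and the second 0. The following were added after seeing the data. Without these and naive Cre- replicate 3, the values were 0 in demyelination, 11 at the peak, 76 and 0 for the interactions, and 44 (Cre+) and 21 (Cre-, reversed, median -0.11) for remyelination start against naive. Principal-transcript length correction gave 24 in naive, 18 and 3 for the interactions, and 30 for remyelination start against naive in Cre-.

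Remyelination start against naive reversed its balance under the length correction (23 calls in Cre+; 24 in Cre-, median -0.06), the length and GC correction (25 in Cre+; 29 in Cre-, median -0.06) and the length and GC correction with the replicate block (29 in Cre+; 31 in Cre-, median -0.05). Single genes that reversed in Cre+ under both GC corrections, with equal values, were Rpl36 (-0.15), Rplp0 (-0.26), Rps6 (-0.48) and Rpl38 (-0.09). In Cre-, the values under the 3 corrections in the same order were -0.14, -0.29 and -0.28 for Rplp1, -0.08, -0.45 and -0.43 for Rpl36, and -0.11, -0.36 and -0.35 for Rpl38. The length, GC and block fit gave 21 calls for the second interaction. The replicate block alone gave 49 calls in naive, 3 in demyelination, 0 in remyelination start, 3 at the peak, 46 and 14 for the interactions, 78 and 77 for demyelination against naive and 34 and 23 for remyelination start against naive. Same-numbered Cre+ and Cre- libraries also deviated together in remyelination peak (r = 0.15, 0.29 and 0.08) and, more weakly, in naive (0.04, 0.06 and 0.09). Apart from these sets and naive with demyelination Cre+, same-numbered libraries did not all do so (r of -0.08 to 0.1). Whether equal numbers mark a shared preparation was not tested. Remyelination libraries are the shallowest, and Rpl39l, at 0 in 2 of them, is limited most by depth.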

Other observations

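Ribosomal protein pseudogenes took up a larger part of ribosomal protein counts in remyelination libraries. The table holds 281 annotated ribosomal protein pseudogenes, of which 95 were tested. Their summed CPM was 1.286% to 1.681% of that of the 80 genes in naive, 0.9296% to 1.208% in demyelination, 3.211% to 3.45% in remyelination with tamoxifen at the start and 3.426% to 3.727% with tamoxifen at the peak. In remyelination start against naive, 73 of 95 were higher in Cre+ (median 2.12) and 71 of 95 in Cre- (2.06), and none was lower, beside medians of 0.23 and 0.12 for the genes. In demyelination against naive the counts were 70 of 95 higher in Cre+ (2.10) and 52 in Cre- (1.41). Reads of a gene and of its near-identical copies may be exchanged, and how such reads were counted is not given in the sources used here.

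In remyelination start against naive, 29.2% of all genes were lower in Cre+ and 27.4% in Cre-. Of other genes under 1000 bases, 41.36% were lower in Cre+ (median -0.23) and 48.66% in Cre- (-0.38). Of those of at least 1000 and under 2000 bases, 47.33% were lower in Cre+ (-0.31) and 51.74% in Cre- (-0.44). Of those of at least 2000 and under 3000 bases, where the median lengths of the assembly, initiation and rRNA transcription lists lie, 44.24% were lower in Cre+ (-0.25) and 43.79% in Cre- (-0.27). Ribosome assembly factors were lower in 26 of 36 in Cre+ (median -0.46) and 25 of 36 in Cre- (-0.46). Mitochondrial ribosomal protein genes were lower in 64 of 77 in Cre+ (-0.58) and 72 of 77 in Cre- (-0.66), and translation initiation factors in 17 of 22 in both (-0.56 in Cre+, -0.45 in Cre-). Genes of rRNA transcription were lower in 9 of 15 in Cre+ (-0.35) and 10 of 15 in Cre- (-0.50). The respiratory chain subunits were lower in 46 of 77 in Cre+ (-0.36) and 50 of 77 in Cre- (-0.42), with medians close to that of other genes under 1000 bases in Cre-.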
